A study of Mus musculus with 23 samples.

Results

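The C/EBP and KLF transcription factors measured here are 10 genes, Cebpa, Cebpb, Cebpd and Cebpg of the C/EBP family and Klf2, Klf3, Klf4, Klf6, Klf7 and Klf10 of the KLF family. They were chosen by name, taking every array probe whose accession maps to one of them, and they are 10 of the 26512 genes tested. Each was read by 1 probe, and that probe was well above background on all 23 arrays.

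The study treated bone marrow-derived macrophages (BMDM) with lipopolysaccharide (LPS) to compare cells that have or lack the kinases MK2 and MK3, which act below p38 MAP kinase. One-colour Agilent arrays measured total RNA from 23 samples in 6 groups. All mice were male and of the C57BL/6 strain, and their marrow cells grew for 9 days with M-CSF at 10 ng/ml before M-CSF was withdrawn shortly ahead of the treatment. Cells then stayed for 120 min in medium alone or in medium with 100 ng/ml LPS. Wild-type (wt) mice were 12 to 13 weeks old and gave 4 medium and 4 LPS arrays. MK2−/− mice, which carry a disrupted Mapkapk2 gene, were 10 to 13 weeks old and gave 4 LPS arrays and 3 medium arrays. MK2/3−/− mice, which lack both kinases, were 11 to 14 weeks old and gave 4 arrays per treatment. The deletions are in the germline, so every cell of the mouse carries them during development and culture.

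C/EBP proteins are basic leucine zipper factors that bind DNA as dimers with one another. They direct the formation of granulocytes and monocytes and drive many inflammatory genes in macrophages. KLF proteins bind GC-rich and CACCC sequences through zinc fingers, and in macrophages some of them restrain inflammatory genes while others raise them.

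Between 47.5% and 69.0% of probes on an array were well above background, with group medians from 50.3% in MK2−/− LPS arrays to 58.2% in wt medium arrays. Precision depends on the number of arrays per group. Each genotype was hybridised on its own slide, so genotype and slide cannot be told apart. Medium arrays lay in row 1 of the slides and LPS arrays in row 2, so treatment and slide row cannot be told apart either.

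The genes of the missing kinases were read first. Mapkapk2 (NM_008551, chromosome 1) encodes MK2. Its log2 signals in medium were 12.46, 12.64, 11.49 and 12.28 in wt, 9.07, 8.73 and 8.94 in MK2−/−, and 8.61, 8.57, 8.91 and 8.79 in MK2/3−/− arrays. After LPS they were 14.84, 15.37, 14.19 and 14.67 in wt, 12.00, 11.89, 11.63 and 12.30 in MK2−/−, and 11.54, 11.65, 11.58 and 12.26 in MK2/3−/− arrays. Every array of both knockouts lay below every wt array of its treatment, and signal above background remained in the knockouts. In medium the log2 difference to wt was -3.31 (SE 0.27) in MK2−/− and -3.50 (SE 0.25) in MK2/3−/− BMDM, with limma adjusted p of 5.87e-06 and 3.04e-07.

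Mapkapk3 (NM_178907, chromosome 9) encodes MK3. In medium it gave 13.12, 13.52, 13.58 and 13.78 in wt, 13.89, 13.60 and 13.73 in MK2−/−, and 11.97, 11.56, 12.08 and 11.89 in MK2/3−/− arrays. After LPS it gave 13.96, 13.77, 14.35 and 13.94 in wt, 13.93, 13.80, 14.07 and 14.10 in MK2−/−, and 10.64, 10.36, 10.89 and 10.91 in MK2/3−/− arrays. The MK2/3−/− arrays lay below all others of their treatment, and the wt and MK2−/− arrays overlapped.

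LPS against medium asked which of the 10 genes respond to 120 min of LPS in each genotype. A gene was called when the limma p, adjusted by Benjamini-Hochberg over all 26512 genes, was under 0.05. In wt BMDM 5 of the 10 genes rose, where 8.16% of all genes did, and 5 fell, where 8.78% did. In MK2−/− BMDM 4 rose against 8.41% of all genes, and 5 fell against 9.98%. In MK2/3−/− BMDM 4 rose against 11.9% of all genes, and 4 fell against 12.8%. With a replicate block, which lets arrays of the same culture share a deviation, 5 fell in MK2/3−/− BMDM against 16.0% of all genes. These shares are a description, since the 10 genes were chosen with earlier results of these data known. All 10 were above background on every array, as were 12725 of 26399 genes without missing values. The 10 genes had a median log2 change of -0.23 in wt BMDM, of -0.64 in MK2−/− BMDM and of -0.26 in MK2/3−/− BMDM, beside medians over all genes of 0.01, -0.01 and -0.02. The methods' t-test put 10, 9 and 9 genes past its unadjusted threshold on log2 signals in these comparisons, where the share of all genes was not counted. After Benjamini-Hochberg adjustment 9, 5 and 8 passed, beside 3036, 3805 and 4722 of all 26512 genes. Limma at an unadjusted p under 0.05 also gave 10, 9 and 9, beside 7067, 7640 and 9116 of all genes. A fall in signal in such bulk RNA may mean fewer cells that hold the transcript or less of it per cell, which cannot be told apart.

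**Figure D1:**
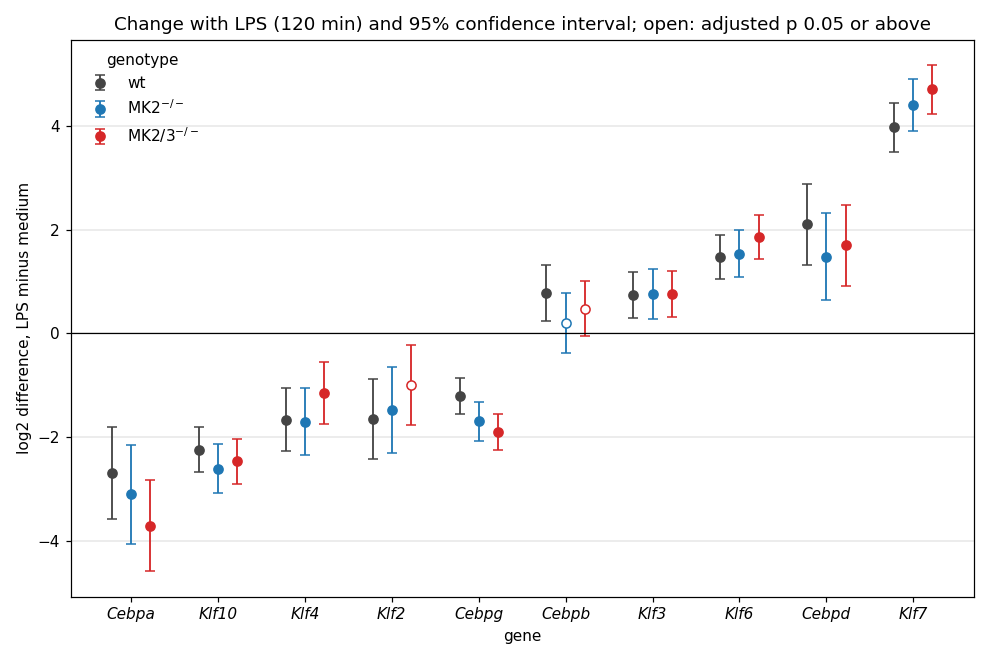
Log2 change from medium to LPS of each gene in the 3 genotypes, with 95% confidence intervals from limma; open points have an adjusted p of 0.05 or above. Cebpa, Klf10 and Klf7 lie farthest from 0, and the intervals of the genotypes overlap for each gene.

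Cebpa (NM_007678, chromosome 7) encodes C/EBPα, which starts the granulocyte and monocyte programme in progenitors and slows their division. Its log2 signals in wt arrays were 11.68, 12.81, 12.91 and 12.25 in medium and 8.83, 9.53, 10.18 and 10.35 after LPS. In MK2−/− arrays they were 12.19, 12.72 and 12.76 in medium and 8.63, 9.37, 9.57 and 10.27 after LPS. In MK2/3−/− arrays they were 12.22, 13.04, 12.51 and 12.72 in medium and 8.02, 8.49, 9.24 and 9.94 after LPS. All LPS arrays lay below all medium arrays in each genotype, and the LPS arrays of the genotypes overlapped, replicate 1 being the lowest in each. Cebpa fell by 2.69 on the log2 scale in wt (SE 0.42, adjusted p = 0.000110), or 6.45-fold. It fell by 3.10 in MK2−/− (SE 0.45, adjusted p = 5.02e-05) and by 3.70 in MK2/3−/− BMDM (SE 0.42, adjusted p = 1.71e-06), where the fall was 13.0-fold. No difference between these responses was called: MK2/3−/− minus wt was -1.01 (SE 0.60, adjusted p = 1.00).

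Cebpg (NM_009884, chromosome 7) encodes C/EBPγ, a short family member without an activation domain that pairs with other C/EBP proteins and with ATF4. In wt arrays it gave 11.04, 11.22, 10.99 and 11.00 in medium and 9.98, 9.41, 9.69 and 10.34 after LPS. In MK2−/− arrays it gave 11.17, 11.06 and 11.03 in medium and 9.44, 9.41, 9.37 and 9.36 after LPS. In MK2/3−/− arrays it gave 10.72, 10.92, 10.70 and 10.67 in medium and 9.02, 8.67, 8.52 and 9.20 after LPS. Medium and LPS arrays did not overlap in any genotype, and MK2−/− LPS arrays lay closest together. Cebpg fell by 1.21 in wt (SE 0.17, adjusted p = 2.68e-05), fell by 1.69 in MK2−/− (SE 0.18, adjusted p = 1.03e-06) and fell by 1.90 in MK2/3−/− BMDM (SE 0.17, adjusted p = 5.72e-08). Cebpa and Cebpg are neighbours on chromosome 7, with 2 gene models between them.

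Cebpd (NM_007679, chromosome 16) encodes C/EBPδ, an inflammation-induced activator that prolongs the response to Toll-like receptor 4. Its wt signals were 13.66, 13.99, 13.51 and 13.17 in medium and 15.95, 16.26, 15.73 and 14.79 after LPS. The MK2−/− signals were 14.21, 13.92 and 13.84 in medium and 15.88, 16.07, 15.08 and 14.84 after LPS. The MK2/3−/− signals were 13.80, 14.36, 13.25 and 13.52 in medium and 15.75, 16.28, 15.09 and 14.61 after LPS. Every LPS array exceeded every medium array of its genotype, and replicates 1 and 2 were the higher ones after LPS in each genotype. Cebpd rose by 2.10 in wt (SE 0.37, adjusted p = 0.000374), by 1.48 in MK2−/− (SE 0.40, adjusted p = 0.0125) and by 1.70 in MK2/3−/− BMDM (SE 0.37, adjusted p = 0.00179). Without MK2−/− medium replicate 3 the MK2−/− change had an adjusted p of 0.0503. The methods' t-test lost the MK2−/− call on log2 signals (0.0620), and on linear signals it lost the calls in wt (0.0586), MK2−/− (0.155) and MK2/3−/− BMDM (0.124).

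Cebpb (NM_009883, chromosome 2) encodes C/EBPβ, an activator of cytokine and acute phase genes. In wt arrays it gave 13.46, 13.31, 12.90 and 13.50 in medium and 14.12, 13.80, 14.06 and 14.32 after LPS. In MK2−/− arrays the values were 13.90, 13.83 and 13.37 in medium and 13.93, 13.69, 13.69 and 14.31 after LPS. In MK2/3−/− arrays the values were 14.01, 13.94, 12.92 and 13.91 in medium and 13.83, 13.89, 14.11 and 14.85 after LPS. The wt arrays of both treatments were apart, those of both knockouts overlapped, and MK2/3−/− medium replicate 3 lay below its group. Cebpb rose in wt BMDM by 0.78 (SE 0.25, adjusted p = 0.0401), with 4 of 4 LPS arrays above all medium arrays. The change was 0.20 (SE 0.28, adjusted p = 0.716) in MK2−/− and 0.48 (SE 0.25, adjusted p = 0.197) in MK2/3−/− BMDM. Both sizes are loose. The MK2−/− change was 0.04 without medium replicate 3, 0.07 without LPS replicate 4, 0.11 with the normexp setting, which takes background from a model, median spot signals and an offset, and 0.58 with scaling to the 75th percentile. The MK2/3−/− change was 0.22 without medium replicate 3, 0.25 without LPS replicate 4, 0.28 with the normexp setting and 0.84 with that scaling, which alone led to a call (adjusted p = 0.00413). The difference between the MK2−/− and wt responses was -0.58 (SE 0.38, adjusted p = 1.00), so a weaker response in the knockout was not shown. The wt call was lost when any one of 7 of the 8 wt arrays was left out, LPS replicate 2 being the exception, with adjusted p from 0.0508 to 0.135.

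Klf7 (NM_033563, chromosome 1) encodes a KLF known from the development of neurons and from metabolic tissues. In wt arrays its signals were 10.67, 10.20, 9.75 and 9.80 in medium and 13.64, 14.10, 14.61 and 13.98 after LPS. In MK2−/− arrays its signals were 9.91, 10.40 and 10.53 in medium and 14.71, 14.66, 14.54 and 14.81 after LPS. In MK2/3−/− arrays its signals were 10.52, 10.22, 9.83 and 10.15 in medium and 14.91, 14.54, 14.92 and 15.17 after LPS. All LPS arrays stood far above all medium arrays, and medium arrays of the genotypes overlapped. Klf7 rose 15.8-fold in wt BMDM, while the rise was 21.1-fold in MK2−/− BMDM and 26.1-fold in MK2/3−/− BMDM. On the log2 scale these were 3.98 (SE 0.22, adjusted p = 1.67e-10), 4.40 (SE 0.24, adjusted p = 1.83e-10) and 4.70 (SE 0.22, adjusted p = 1.70e-11).

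Klf6 (NM_011803, chromosome 13), which raises inflammatory gene expression in macrophages, ranged from 14.78 to 15.20 over the medium arrays and from 15.81 to 17.08 over the LPS arrays of all genotypes. It rose by 1.48 in wt (SE 0.20), 1.54 in MK2−/− (SE 0.22) and 1.86 in MK2/3−/− BMDM (SE 0.20), with adjusted p of 2.22e-05, 3.07e-05 and 8.33e-07. The wt call was lost by the methods' t-test on linear signals (0.0672). Klf3 (NM_008453, chromosome 5), a repressor that recruits CtBP, ranged from 12.58 to 13.54 in medium and from 13.48 to 14.31 after LPS. Its rise was 0.74 in wt (SE 0.21, adjusted p = 0.0206), 0.76 in MK2−/− (SE 0.23, adjusted p = 0.0252) and 0.76 in MK2/3−/− BMDM (SE 0.21, adjusted p = 0.0124). LPS arrays exceeded all medium arrays of their genotype in 3 of 4 wt arrays and in 4 of 4 arrays of both knockouts. In the limma fit of each pair of groups alone the Klf3 calls were lost, at adjusted p of 0.0857 in wt and 0.0648 in MK2−/− BMDM, as in the methods' t-test on log2 (0.119 and 0.0932) and linear signals (0.140 and 0.152). They were also lost without wt LPS replicate 2 or wt medium replicate 1 or 4 (adjusted p from 0.0681 to 0.0850), without MK2−/− LPS replicate 1 or 2 or any MK2−/− medium array (0.0537 to 0.0945), and without MK2/3−/− medium replicate 4 (0.0535).

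Klf2 (NM_008452, chromosome 8) encodes a factor that keeps monocytes and endothelium quiescent. In wt arrays it read 11.28, 10.98, 10.72 and 10.25 in medium and 9.62, 9.27, 8.71 and 9.03 after LPS. In MK2−/− arrays it read 12.35, 11.32 and 10.32 in medium and 10.14, 10.21, 9.18 and 9.86 after LPS. In MK2/3−/− arrays it read 11.63, 11.00, 10.58 and 10.48 in medium and 10.07, 10.01, 9.48 and 10.17 after LPS. LPS arrays lay below the medium arrays of their genotype throughout, and the MK2−/− medium arrays were the most spread. Klf2 fell by 1.65 in wt (SE 0.37, adjusted p = 0.00297) and by 1.48 in MK2−/− BMDM (SE 0.39, adjusted p = 0.0112). In MK2/3−/− BMDM the change was -0.99 (SE 0.37), which missed the threshold at an adjusted p of 0.0550 and passed it at 0.0211 with the replicate block. The MK2−/− call was lost in the limma fit of the pair of groups (adjusted p = 0.107) and in the methods' t-test on log2 (0.166) and on linear signals (0.262). Without MK2−/− medium replicate 1 the MK2−/− change shrank to -0.97 and its call was lost (adjusted p = 0.106), and the MK2/3−/− change was called (adjusted p = 0.0259). The MK2/3−/− change was also called without MK2−/− LPS replicate 3 (0.0485), MK2−/− medium replicate 3 (0.0263) or MK2/3−/− medium replicate 4 (0.0475), in the fit of the pair of groups (0.0497) and among expressed probes alone (0.0340). The MK2/3−/− response minus the wt response was 0.66 (SE 0.52, adjusted p = 1.00).

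Klf4 (NM_010637, chromosome 4) encodes a factor of monocyte differentiation and alternative activation. Its wt signals were 11.31, 10.53, 10.27 and 11.24 in medium and 9.08, 9.41, 8.70 and 9.50 after LPS. Its MK2−/− signals were 12.07, 11.21 and 10.71 in medium and 9.49, 9.92, 9.18 and 9.93 after LPS. Its MK2/3−/− signals were 11.16, 10.81, 10.79 and 10.94 in medium and 9.81, 9.98, 9.30 and 10.02 after LPS. Treatments did not overlap in any genotype, and replicate 3 was the lowest LPS array in each. Klf4 fell by 1.66 in wt (SE 0.29, adjusted p = 0.000313), by 1.70 in MK2−/− (SE 0.31, adjusted p = 0.000511) and by 1.15 in MK2/3−/− BMDM (SE 0.29, adjusted p = 0.00552). The methods' t-test lost the MK2−/− call on log2 (adjusted p = 0.0525) and linear signals (0.136), and the wt call on linear signals (0.0647).

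Klf10 (NM_013692, chromosome 15) encodes a TGF-beta-inducible repressor of growth. Wt arrays gave 12.32, 11.61, 11.86 and 11.53 in medium and 9.98, 9.06, 9.61 and 9.71 after LPS. MK2−/− arrays gave 12.29, 11.78 and 11.85 in medium and 9.01, 9.45, 9.70 and 9.30 after LPS. MK2/3−/− arrays gave 12.01, 12.27, 11.98 and 11.93 in medium and 9.34, 9.61, 9.53 and 9.85 after LPS. The gap between treatments was wide in each genotype, and the genotypes overlapped within each treatment. Klf10 fell by 2.24 in wt (SE 0.21), by 2.61 in MK2−/− (SE 0.22) and by 2.47 in MK2/3−/− BMDM (SE 0.21), with adjusted p of 1.82e-07, 6.61e-08 and 3.27e-08.

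**Figure D2:**
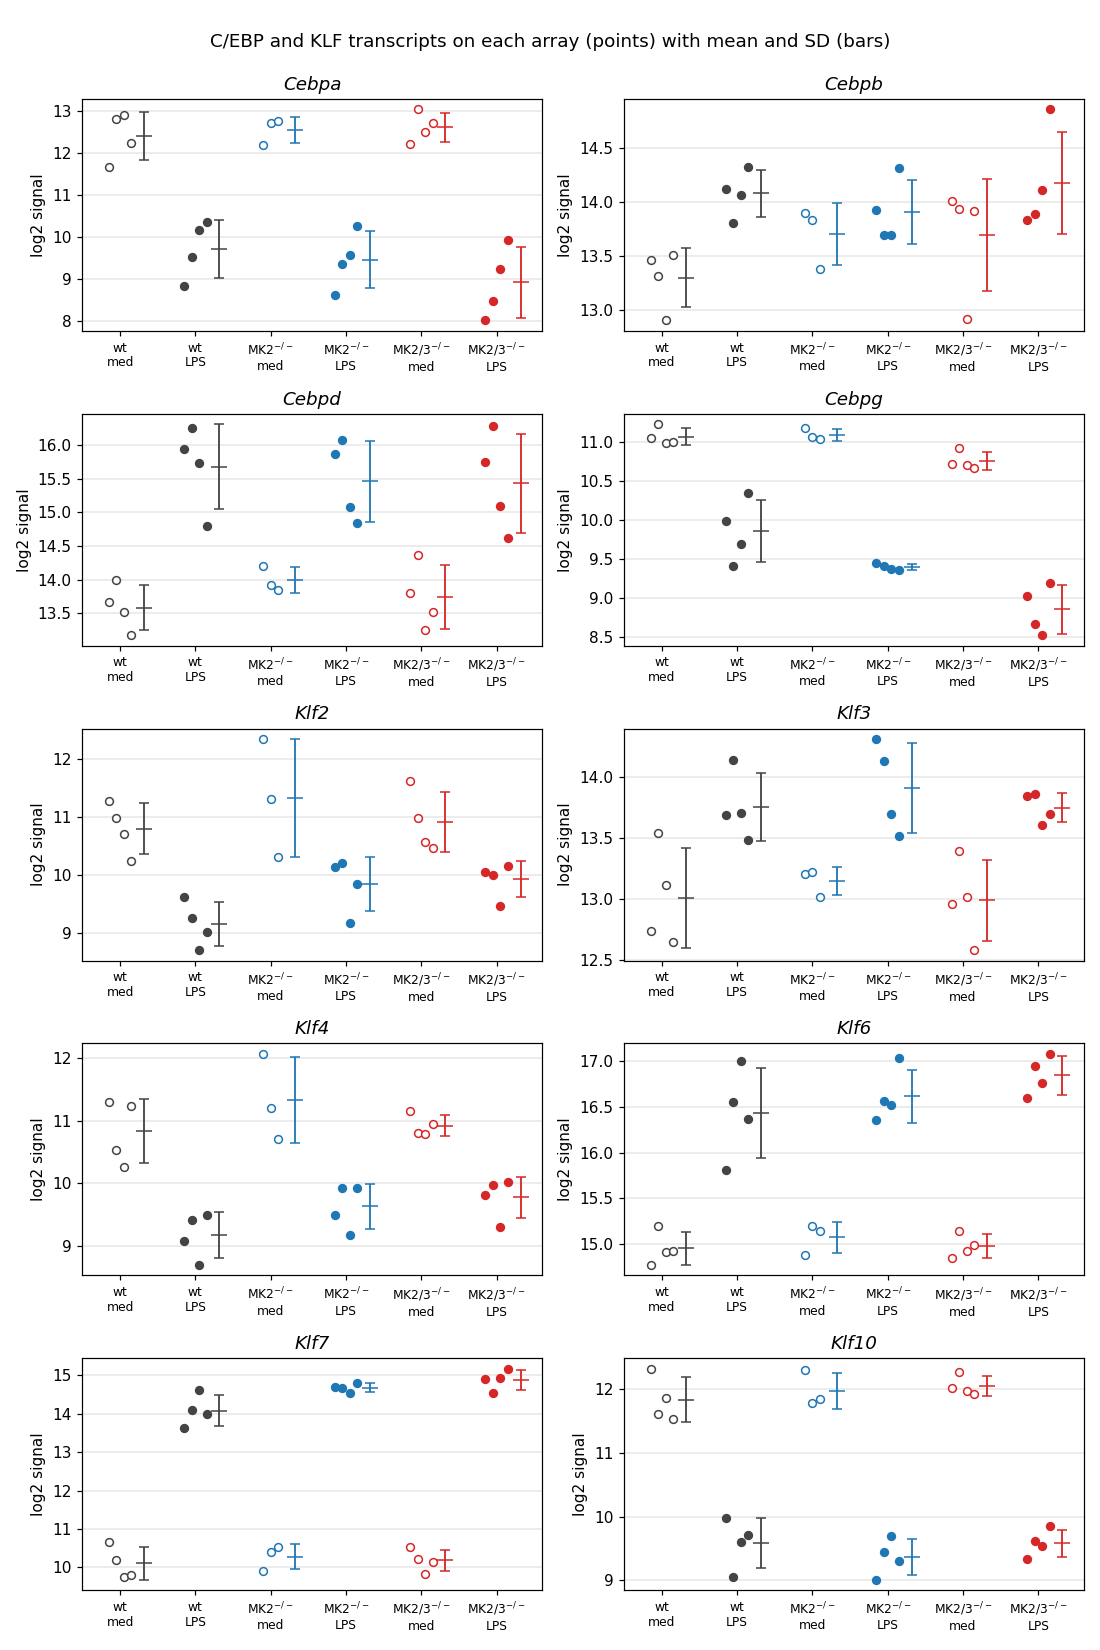
Log2 signal of each of the 10 genes on every array, by genotype and treatment; points are arrays and bars show the mean and SD of the group. Cebpg after LPS lies lower in each MK2/3−/− array than in each wt array.

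In medium, genotype comparisons asked whether loss of MK2 or of both kinases alters these genes before LPS. By limma 0 of the 10 genes were called in MK2−/− against wt, where 0.00754% of all genes were. At an unadjusted p under 0.05 limma gave 0, beside 901 of all 26512 genes, and the methods' t-test gave 0 at its own unadjusted threshold. In MK2/3−/− against wt 0 were called against 0.0792% of all genes, and in MK2/3−/− against MK2−/− 0 against 0.0453%. By limma 0 again had an unadjusted p under 0.05, beside 1235 and 960 of all genes. The methods' t-test and the limma fit of each pair of groups each put 1 gene, Cebpg, past the unadjusted threshold in both, and 0 after adjustment. The share of all genes past that unadjusted threshold was not counted for either. Cebpg was lower than in wt by a log2 difference of -0.31 (SE 0.17, adjusted p = 1.00) in MK2/3−/− medium arrays, and all 4 lay below all 4 wt arrays. The 10 differences ran from 0.03 to 0.52 in MK2−/− against wt, from -0.31 to 0.40 in MK2/3−/− against wt and from -0.41 to 0.07 in MK2/3−/− against MK2−/−. The sign of Klf3 in MK2/3−/− against wt and of Cebpb in MK2/3−/− against MK2−/− changed with the scaling, between -0.05 and 0.11 and between -0.01 and 0.07.

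After LPS, the same comparisons asked whether the kinases set the level that these genes reach. In MK2/3−/− against wt 1 of the 10 genes, Cebpg, was called, where 1.64% of all genes were. By limma 4 of the 10 had an unadjusted p under 0.05, beside 3590 of all 26512 genes. Cebpg was lower by a log2 difference of -1.0 (SE 0.17, adjusted p = 0.00465, 2.00-fold), and each of the 4 double knockout arrays lay below all wt arrays. The exact permutation p was 0.0286, the smallest that 4 against 4 arrays can give. This call was lost without the fit over all groups: the limma fit of the 2 groups alone gave an adjusted p of 0.268, and the methods' t-test gave 0.362 after adjustment. What in these fits ended the call was not tested. In MK2−/− BMDM Cebpg was intermediate, with log2 differences of -0.46 (SE 0.17, adjusted p = 0.566) to wt, or -0.30 (adjusted p = 0.799) without wt LPS replicate 4, and, for MK2/3−/− against MK2−/−, of -0.54 (SE 0.17, adjusted p = 0.30).

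Klf7 had the next smallest adjusted p in MK2/3−/− against wt after LPS, 0.0837, at a log2 difference of 0.80 (SE 0.22). Of the 4 MK2/3−/− arrays 3 lay above all wt arrays. Scaling to the 75th percentile, which moved the median of all genes in this comparison to 0.15, gave Klf7 a difference of 0.98 and an adjusted p of 0.0334, and leaving out wt LPS replicate 3, the highest wt array, brought it to 0.0301. The call was absent in the other settings: leaving out wt LPS replicate 1, the lowest wt array, gave 0.65 and an adjusted p of 0.289, the replicate block gave 0.114, the fit of the pair of groups 0.354 and the methods' t-test 0.442 on log2 and 0.477 on linear signals. Klf2 and Klf4 differed by 0.77 (SE 0.37, adjusted p = 0.363) and 0.61 (SE 0.29, adjusted p = 0.369), and for each gene 3 of the 4 double knockout arrays exceeded all wt arrays. The median difference of the 10 genes was 0.04, beside 0.01 over all genes. Klf3 and Klf10 stood at -0.00 and -0.01 and changed sign with the scaling, reaching 0.15 and 0.03.

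In MK2−/− against wt after LPS 0 of the 10 genes were called by limma, where 0.0302% of all genes were. At an unadjusted p under 0.05 limma gave 2, Cebpg and Klf7, beside 1988 of all 26512 genes. The fit of the pair of groups gave 2 unadjusted, Klf2 and Klf7, and the methods' t-test gave 1, Klf7. The unadjusted share of all genes was not counted for the pair fit or the methods' t-test. Klf7 differed by 0.60 (SE 0.22, adjusted p = 0.584). In MK2/3−/− against MK2−/− after LPS 0 were called against 0.158% of all genes, with 1 unadjusted, Cebpg, by limma and by the methods' t-test. By limma 2106 of all genes had an unadjusted p under 0.05 in this comparison. Cebpd in MK2/3−/− against MK2−/− after LPS was -0.03 and ran from -0.04 to 0.05 with the scaling.

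Whether the LPS response itself differs by genotype was tested by interaction terms. None of the 10 genes passed: 0 for MK2−/− minus wt, where 0.00377% of all genes were called, 0 for MK2/3−/− minus wt, where 0.0113% were, and 0 for MK2/3−/− minus MK2−/−, where 0% were. At an unadjusted p under 0.05 limma gave 0, 2 and 0 of the 10 genes, beside 510, 1205 and 767 of all 26512 genes. No other tool was run on these terms. Cebpg and Klf7 were the 2, at -0.69 (SE 0.24, adjusted p = 0.794) and 0.73 (SE 0.32, adjusted p = 1.00). A different LPS response of the 10 genes between genotypes was therefore not shown. The Klf3 term for MK2/3−/− minus MK2−/− was -0.00 and changed sign with the scaling, between -0.00 and 0.06.

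Markers of macrophages and of other cells were read beside the genotype results. Of 8 macrophage markers 7 were matched to a probe by accession, Cd68 was not analysed here, and all 7 were well above background on all arrays. Their summed signals ran from 579930 to 966342, with Csf1r the most abundant. For granulocytes 7 of 8 markers were matched, Ly6g was not analysed here, and 5 were above background on all arrays. Elane had the highest mean log2 signal and made up 11.5% to 79.4% of the sum of an array. Their sums after LPS were 5987, 12744, 4185 and 7448 in wt, 6141, 12691, 3306 and 4758 in MK2−/−, and 5466, 16572, 3451 and 5368 in MK2/3−/− arrays. Genotypes overlapped in these sums, and replicate 2 was the highest in each. There S100a9 exceeded Elane, at log2 signals of 12.83 in wt, 12.83 in MK2−/− and 13.32 in MK2/3−/− arrays.

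All 5 dendritic cell markers were measured, 2 of them above background on all arrays and Itgax the most abundant. Their sums after LPS were 5338, 10398, 4073 and 3546 in wt, 6557, 11181, 6300 and 7465 in MK2−/−, and 13372, 15634, 7124 and 7052 in MK2/3−/− arrays. In medium they were 3804, 8350, 1827 and 2251 in wt, 5300, 10541 and 4739 in MK2−/−, and 12649, 12588, 3903 and 4642 in MK2/3−/− arrays. The MK2/3−/− sums were higher in the median, and single arrays overlapped with wt. Itgax made up 61.9% to 97.3% of the sums, so they follow Itgax. Its mean log2 signal after LPS was 13.04 in MK2/3−/− and 11.82 in wt arrays, a difference not called by limma (adjusted p = 0.304). Flt3 and Cd209a also had higher means there, 6.11 and 5.33 in MK2/3−/− and 5.63 and 3.96 in wt arrays. Cd209a was above background on 3 of 4 and 1 of 4 of these arrays. Ccr7 and Zbtb46 had lower means, 8.32 and 10.06 in MK2/3−/− and 8.87 and 10.14 in wt arrays. All 4 fibroblast markers were measured, 2 of them above background on all arrays and Col1a2 the most abundant. Their sums after LPS were 86360, 3853, 18676 and 34757 in wt, 2503, 1452, 7386 and 31869 in MK2−/−, and 856, 1838, 11857 and 48038 in MK2/3−/− arrays. In medium they were 104741, 4450, 19604 and 35573 in wt, 2317, 1225 and 34199 in MK2−/−, and 520, 1898, 10186 and 58059 in MK2/3−/− arrays. With the third MK2−/− medium array set beside MK2−/− LPS replicate 4, an assumed pair, these sums differed more between cultures of a genotype than between treatments of a culture.

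Erythroid and mast cell markers were low, and the sums of T cell markers were higher than theirs. Of 3 T cell markers Cd3e was above background on all arrays and Cd3d on none, with Cd3e the most abundant and sums from 817 to 2296. None of 4 erythroid markers was above background on all arrays, with Epor the most abundant and sums from 43.7 to 124. None of 3 mast cell or basophil markers was above background on all arrays and Ms4a2 was on none, with sums from 10.9 to 225. Mcpt8 had the highest mean log2 signal of the 3 and made up 12.3% to 96.9% of the sum of an array. The part of these other cells in the Cebpg and Klf7 differences was not tested.

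Ordered by mean level over the 6 groups, the 3 medium groups of Cebpa, Cebpg, Klf2, Klf4 and Klf10 came first and the 3 LPS groups last. At the step from medium to LPS groups in that order the arrays did not overlap for any of these 5 genes. For Cebpb, Cebpd, Klf3, Klf6 and Klf7 the LPS groups came first. In that order Cebpd, Klf3, Klf6 and Klf7 had no overlap at the step from LPS to medium groups, and Cebpb overlapped at every step. That step compares neighbouring groups only, and the lowest wt LPS array of Klf3, 13.48, lay below its highest wt medium array, 13.54. How many of all genes have steps without overlap was not counted, so these counts are a description. Within a treatment, neighbouring groups overlapped for 9 of the 10 genes. Cebpg was the exception, with MK2/3−/− medium arrays, at a mean of 10.75 ± 0.12 (SD, n = 4), below wt medium arrays at 11.06 ± 0.11 (SD, n = 4), and MK2/3−/− LPS arrays, at 8.85 ± 0.31 (SD, n = 4), below MK2−/− LPS arrays at 9.39 ± 0.04 (SD, n = 4).

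Medium and LPS arrays were taken as 11 pairs of the same culture. No label states the pairs: they follow the replicate numbers, except that MK2−/− medium replicate 3 was placed with LPS replicate 4, whose mice were of the same age. Cebpa, Cebpg, Klf2, Klf4 and Klf10 were lower after LPS in 11 of 11, and Cebpd, Klf3, Klf6 and Klf7 were higher in 11 of 11. Cebpb was higher in 8 of 11 and lower in 3. Within pairs Cebpa ran from -4.56 to -1.90, Klf7 from 2.97 to 5.09 and Klf2 from -2.21 to -0.31. Arrays of a culture resembled each other beyond their groups, with a correlation across genes of 0.06 to 0.56 in the 11 pairs over 26399 genes and of 0.36 to 0.77 over the 12725 above background on all arrays, which are not independent replicates. With the replicate block by culture Cebpg after LPS in MK2/3−/− against wt had an adjusted p of 0.00671 and Cebpb in wt after LPS one of 0.0180.

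Genes with a like pattern were sought by Pearson correlation of log2 signals over the 23 arrays among 15923 others, as a description without a test, since the arrays share the LPS contrast. Klf2 and Klf4 were each the closest gene of the other (r = 0.905). Within the LPS arrays alone their r was 0.806 and within the medium arrays alone it was 0.682. Cebpd was closest to Tent4a (r = 0.970), Cebpg to Tmem199 (r = 0.975), Klf3 to Rab32 (r = 0.951), Klf7 to Wdr92 (r = 0.991) and Klf10 to Mlst8 (r = 0.981). The gene closest to Klf6 had no name in the gene table, and Hivep1 followed (r = 0.977). Within the LPS arrays alone r was 0.902 for Cebpd, 0.928 for Cebpg, 0.928 for Klf3, 0.692 for Klf7, 0.505 for Klf10 and 0.868 for Klf6 with these genes. Within the medium arrays alone r was 0.790 for Cebpd, 0.851 for Klf3, 0.551 for Klf10 and 0.487 for Klf7, but 0.0670 for Cebpg and 0.0138 for Klf6, whose likeness to these genes is thus not seen in medium. Cebpb had the lowest such values, with Hnrnpd at 0.781 and Egr2 at 0.774.

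Other genes of both families and of their routes were taken as whole lists. Their counts stand beside 8.16%, 8.41% and 11.9% of all genes that rose after LPS in wt, MK2−/− and MK2/3−/− BMDM, and 8.78%, 9.98% and 12.8% that fell, and 1 called gene in lists this short says little beside them. Among Cebpe, Cebpz and Ddit3, limma called 0 of 3 in wt after LPS. It gave 1 at an unadjusted p under 0.05, beside 7067 of all 26512 genes. The methods' t-test gave 1 unadjusted, where the share of all genes was not counted, and 0 adjusted. Ddit3, which encodes the C/EBP inhibitor CHOP, changed by -0.93 in wt (adjusted p = 0.0759) and fell by 1.39 in MK2−/− and by 1.15 in MK2/3−/− BMDM, as 1 of 3 called in each by limma and 0 of 3 in each by the methods' t-test after adjustment, and the interactions against wt, -0.46 and -0.22, were not called (adjusted p = 1.00). The list medians were -0.76, -0.71 and -1.01. Of 11 other KLF genes, 6 of them above background on all arrays of a group, 1 rose and 4 fell in wt, 1 rose and 4 fell in MK2−/−, and 2 rose and 2 fell in MK2/3−/− BMDM, with medians of -0.12, -0.31 and -0.04. The methods' t-test called 3, 1 and 2 of the 11 after adjustment. Klf9 and Klf13 fell in wt, by 1.31 and by 0.79, while in MK2/3−/− BMDM their changes were -0.11 and -0.20 and not called. The interaction for MK2/3−/− minus wt was 1.2 (SE 0.34, adjusted p = 0.538) for Klf9 and 0.59 (SE 0.28, adjusted p = 1.00) for Klf13. Klf16 had lower means after LPS in both, 7.68 against 8.28 in wt and 7.78 against 8.52 in MK2/3−/− arrays. So did Klf11, at 2.83 against 5.61 and 4.32 against 5.88, with LPS signals above background on 1 of 4 arrays in each. Klf5 rose in wt from a medium signal above background on 1 of 4 arrays, and in MK2−/− BMDM from none of 3 to an LPS signal above background on 3 of 4, so no size is given for either, and rose at least 3.17-fold in MK2/3−/− BMDM. Klf9 after LPS was higher in MK2/3−/− than in wt arrays by 1.74 (SE 0.24, adjusted p = 0.00119), with 4 of 4 above all wt arrays, as the 1 of 11 called there by limma, where 1.64% of all genes were, while the methods' t-test called 0 of 11 after adjustment. Of 4 SP genes, relatives of the KLF genes, 1 rose and 1 fell in each genotype: Sp2 rose by 0.63, 0.57 and 0.79, and Sp3 fell by 1.28 in wt, by 1.68 in MK2−/− and decreased by 1.59 in MK2/3−/− BMDM. The SP medians were -0.15, -0.10 and 0.06, and the methods' t-test called 2, 1 and 2 of the 4 after adjustment.

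Among 9 partners and regulators of C/EBP proteins 3 rose in wt BMDM, 4 rose in MK2−/− BMDM and 2 rose in MK2/3−/− BMDM, with medians of 0.23, 0.56 and 0.14 and with 2, 4 and 2 called by the methods' t-test after adjustment. Gfi1, a repressor that acts beside C/EBP proteins in granulocyte formation, was on no medium array well above background and rose at least 172-fold in wt BMDM, at least 168-fold in MK2−/− BMDM and at least 89.6-fold in MK2/3−/− BMDM. Batf2, whose protein can pair with C/EBP proteins, rose by 3.30, 3.19 and 4.72. Atf4, whose protein pairs with C/EBPγ, rose by 0.72 in wt and 1.04 in MK2−/−, and in MK2/3−/− BMDM the change was 0.41 (adjusted p = 0.249), with an interaction against wt of -0.31 (SE 0.34, adjusted p = 1.00).

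Of 19 genes known as C/EBP targets in myeloid cells 18 were matched to a probe by accession, and Il12b was not analysed here. In wt 10 rose and 1 fell, in MK2−/− 9 rose and 1 fell, and in MK2/3−/− BMDM 9 rose and 1 fell, with 11, 7 and 8 called by the methods' t-test after adjustment. The medians were 2.58, 1.65 and 2.17, and 2.05, 1.65 and 1.69 with genes lacking signal above background in one group at their bound; no other list median moved with such bounds. Il6 rose in wt from a medium signal above background on 1 of 4 arrays, so no size is given, and Il1b rose by 8.63 and Tnf by 8.02. The gene that fell was Pparg, which changed by -1.0 in wt BMDM, by -1.54 in MK2−/− BMDM and by -1.30 in MK2/3−/− BMDM. Il10 after LPS was lower in MK2/3−/− than in wt arrays by a log2 difference of -3.22 (SE 0.47, adjusted p = 0.00161), and it was the 1 target of 18 called there by limma, beside 1.64% of all genes, with 0 called by the methods' t-test after adjustment.

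Of 7 targets of KLF2 or KLF4, 4 of them above background on all arrays, 1 rose and 2 fell in each genotype, with medians of -0.02, -0.61 and -0.26 and 3, 2 and 2 called by the methods' t-test after adjustment. Thbd, which encodes thrombomodulin, fell by 2.61 in wt, by 3.18 in MK2−/− and decreased by 1.18 in MK2/3−/− BMDM. A difference of the LPS response between genotypes was called by limma for none of the 7 targets. S1pr1, which encodes a receptor of sphingosine 1-phosphate, fell by 2.18 in wt, and Cdkn1a, a cell cycle inhibitor gene, rose by 3.61. In the ERK5 and MEF2 route, which induces Klf2 and Klf4, 1 of 6 genes fell in each genotype and 1 rose in MK2/3−/− BMDM, with medians of -0.21, -0.11 and 0.03 and 1, 1 and 1 called by the methods' t-test after adjustment. Mapk7, which encodes ERK5, fell by 1.80 in wt, by 2.20 in MK2−/− and decreased by 2.30 in MK2/3−/− BMDM, and Mef2a rose by 1.16 in MK2/3−/− BMDM. Of 7 TGF-beta genes around KLF10, 2 fell in each genotype and 1 rose in MK2/3−/− BMDM, with medians of -0.12, -0.12 and 0.39 and 2, 1 and 2 called by the methods' t-test after adjustment. Smad7, an inhibitor of TGF-beta signalling, fell by 0.86 in wt and was lower in MK2/3−/− than in wt LPS arrays by a log2 difference of -1.10 (adjusted p = 0.0481). Smad3, which carries the signal, was higher there by 1.19 (adjusted p = 0.0474). These were the 2 of 7 called by limma in that comparison, beside 1.64% of all genes, and both lay close to the threshold. The methods' t-test called 0 of 7 after adjustment.

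Promoters were read from RefSeq sequence on build GRCm38.p6, as the 250 bases before the gene start, for the 8 members that the table holds; Cebpd and Klf10 are named only. Their GC content ran from 59.2% to 81.6%, beside a median of 52.4% over 32851 promoters. Both strands were searched for motifs that were chosen, as were the promoters shown, after matches had been seen. GGGCGG, the GC box bound by KLF and SP proteins, was in 6 of 8, beside 32.7% of all promoters. CACCC, bound by KLF proteins, was in 5 of 8 beside 52% of all, and CCAAT in 2 of 8 beside 33.8%. The C/EBP core TTGCNNAA (in 9.56% of all promoters), the cyclic AMP element TGACGTCA (1.55%), the AP-1 motif TGANTCA (6.75%) and the NF-kB (3.9%) and SRF (1.47%) motifs, searched by name, had no match in the 8 windows. These matches are descriptions of sequence and no sign of binding.

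Of the 3 promoters shown, Cebpa belongs to the gene with the largest fall of the 10 in each genotype, Klf2 to a gene that the ERK5 and MEF2 route induces and Klf6 to a gene that rose in each genotype. None of the 3 windows overlaps another gene model. Capitals mark TATAAA (in 12.4% of all promoters) in Cebpa, at chr7:35119043-35119292 on the plus strand, the MEF2 motif (0.508%) in Klf2, at chr8:72318812-72319061 on the plus strand, and 4 matches of CCAAT or its complement in Klf6, at chr13:5861239-5861488 on the plus strand.
Cebpa: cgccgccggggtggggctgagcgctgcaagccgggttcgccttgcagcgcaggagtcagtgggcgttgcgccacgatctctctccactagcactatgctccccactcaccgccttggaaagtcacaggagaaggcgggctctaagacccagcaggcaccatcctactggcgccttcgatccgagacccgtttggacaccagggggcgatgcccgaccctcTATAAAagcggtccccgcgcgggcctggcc
Klf2: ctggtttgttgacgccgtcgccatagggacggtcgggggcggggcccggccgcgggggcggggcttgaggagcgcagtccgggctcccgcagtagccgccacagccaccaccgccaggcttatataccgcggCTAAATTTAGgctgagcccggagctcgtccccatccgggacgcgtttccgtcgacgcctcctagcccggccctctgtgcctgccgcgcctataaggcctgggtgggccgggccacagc
Klf6: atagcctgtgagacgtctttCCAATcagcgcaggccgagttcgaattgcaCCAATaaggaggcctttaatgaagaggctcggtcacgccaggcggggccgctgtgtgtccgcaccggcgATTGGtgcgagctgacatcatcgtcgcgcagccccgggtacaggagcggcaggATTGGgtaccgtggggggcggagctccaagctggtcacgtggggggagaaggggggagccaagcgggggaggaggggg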

How the data were processed

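Arrays were one-colour Agilent scans of RNA from 23 BMDM samples, 4 per group and 3 for MK2−/− BMDM in medium. Per the file headers, Agilent Feature Extraction made the deposited intensity values, a signal with background subtracted within each array. The deposited series values are log2, which the authors quantile normalised and centred on each probe's median; they serve as an alternative here. From the deposited intensity, log2 signals were taken without a floor, marked spots (0.313%) were left out, repeated spots were averaged, and arrays were quantile normalised. Of 55681 probes, 33391 carry RefSeq or another one- or two-letter accession. This filter was widened after the data were seen and takes in some cluster identifiers; the narrower one is an alternative. Where a gene has several probes, the one with the highest LPS to medium difference in wt BMDM stands for it; each of the 10 genes has 1.

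Comparisons used limma 3.58.1 in R 4.3.3 (data.table version 1.17.8), with 6 group means and 23 arrays in 1 fit, two-sided, and Benjamini-Hochberg adjustment over all genes at 0.05. Differences are signed as the first group minus the second, and LPS minus medium. Exact permutation tests of single genes were two-sided and cannot go below 0.0286. Figures and sequences used Python 3.11.15 with matplotlib 3.10.9. The fit was tested on simulated data: the first limit set for the share of changes found was not met and was lowered, and the misses lay in genes of large spread. The genes and lists were chosen with earlier results of these data known. Named genes are the 10 members, Mapkapk2 and Mapkapk3, the closest genes by correlation, and, in lists of relatives, partners, targets and routes, at most 6 called genes per comparison and genes named for their role. Marker lists covered macrophages, granulocytes, dendritic cells, T cells, B cells, erythroid cells, fibroblasts and mast cells or basophils. 1 marker list and 1 closest gene are not reported here. Alternatives varied background, a floor of 5, scaling, probe choice, filters, block, test and arrays. A block by slide was not run, because each genotype has its own slide, and the normexp alternative used median spot signals in place of means.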

Additional observations from a re-analysis of the deposited data

Results flagged for a closer look

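A single array stood apart from the other 3 of its group in 2 of the 60 groups of 4 arrays examined for the 10 genes and both kinase genes, and chance flags about 1 in 20 groups. Mapkapk2 in MK2/3−/− LPS replicate 4 was 12.26, above the other arrays of the group, which ran from 11.54 to 11.65. Cebpb in MK2/3−/− medium replicate 3 was 12.92, below the others, which ran from 13.91 to 14.01.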

How the results depend on the processing

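In 37 alternative settings, 23 of which leave out 1 array each, 533 of 546 counts of called genes stayed within 1.5 times the reported count and 13 did not. Of 1437 values of single genes, 1385 kept their direction and side of the threshold, 41 lost the call, 11 gained it and 0 reversed. In MK2−/− BMDM the genes called higher after LPS went from 4 to 2, and those called lower from 5 to 3, by the methods' t-test on log2 and on linear signals after adjustment, and in wt those called higher went from 5 to 2 by that test on linear signals. For MK2/3−/− against wt after LPS the count of 1 became 2 with scaling to the 75th percentile, and 0 in the limma fit of the pair of groups, where 4 were unadjusted, and in both t-tests, where 4 were unadjusted; Cebpg had an adjusted p of 0.268, 0.362 and 0.477 there. These tests take the spread from fewer arrays, and the share of all genes at their unadjusted threshold was not counted. The cause of the changes was not tested. Leaving out 1 array gave 2 to 4 genes called higher in MK2−/− (2 without medium replicate 3), 3 to 5 in wt (3 without medium replicate 1 or 4), 4 to 5 called lower in MK2−/−, and 1 to 2 in MK2/3−/− against wt after LPS (2 without wt LPS replicate 3). Scaling to the 75th percentile moved the median of all genes to 0.13 (wt) and 0.18 (MK2−/−) in LPS against medium; in MK2/3−/− BMDM, at a median of 0.04, it gave Cebpb a change of 0.84 (adjusted p = 0.00413). The normexp setting, which also took median spot signals and an offset, ended the Cebpb call in wt (0.0900); which of these did so was not tested. Settings chosen after seeing the data, 3 in number, were the narrower accession filter, which changed no call of the 10 genes, leaving out both arrays without a gradient fit, which ended the calls of Cebpb in wt (0.0536) and Klf3 in MK2−/− (0.0662), and a replicate block by culture number shared across genotypes, which called Klf2 in MK2/3−/− BMDM (0.0195). That replicate block assumes that equal numbers mark cultures run together, which no label states. Arrays of equal culture number and treatment in different genotypes had deviations from their groups that correlated above 0.1 in 17 of 22 pairs over 12725 genes above background, with a median of 0.37 and a range from -0.11 to 0.82, where pairs of the same culture had a median of 0.49; over 26399 genes the medians were 0.15 and 0.25. Signal over background did not limit the 10 genes, which were above it on all arrays.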
